A study of Homo sapiens with 17 samples.

Results

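A set of 10 classical target genes of the transcription factor p53 was followed in human neurons with and without UTX: MDM2, FAS, BAX, BBC3, AEN, TP53I3, SESN1, SESN2, RRM2B and ZMAT3. They were taken by name, as known p53 targets, from a table of 60199 genes, with earlier results of these data known. Shares over all genes set beside the members are therefore descriptive. All 10 were among the 18614 genes with enough counts to be tested. The cells were neurons at day 40 of differentiation from H9, an established human embryonic stem cell line, at passage P40. The wild type (WT) group was unedited H9, and the knockout (KO) groups were the lines KO1 and KO2, both labelled UTX-/-, where UTX, the product of KDM6A, strips methyl groups off lysine 27 of histone H3. RNA was sequenced from 3 WT, 3 KO1 and 2 KO2 libraries. Chromatin immunoprecipitation (ChIP) measured H3K27me3, the mark of Polycomb-repressed chromatin, and H3K36me3, which marks the bodies of transcribed genes. There was 1 peak list for each mark in each genotype, without replicates. The ChIP control is titled input but carries a normal rabbit IgG antibody label. The labels do not say whether each KO line is 1 clone, nor whether the libraries of a line were differentiated separately, so every p-value here reflects the spread among these libraries, which may be technical.

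p53 is held at a low level by MDM2, a ubiquitin ligase that marks it for degradation and is itself a p53 target, which closes a negative feedback loop. DNA damage and other stresses release p53, which then binds pairs of a 10-base half-site and switches on genes for growth arrest, DNA repair, antioxidant defence and cell death. In neurons and their progenitors the pathway is best known for removing damaged cells, through the mitochondrial route of apoptosis (BAX, BBC3) and the death receptor route (FAS).

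The promoters of the members on which the results turn are shown here, 250 bases before to 50 bases after an annotated start, so that the position of peaks and half-sites can be followed. The sequences are from RefSeq (GRCh38.p14), which held a start for 9 of the 10 members. FAS, the member with an H3K27me3 peak at its starts, is shown at the first and the last of its 3 annotated starts (chr10:88990548-88990847 and chr10:88991181-88991480, plus strand). AEN (chr15:88621090-88621389, plus strand) and SESN1 at its last start (chr6:109008939-109009238, minus strand) are shown because they, like the last FAS window, held a p53 half-site, and TP53I3 (chr2:24084785-24085084, minus strand) because it was, with FAS, a member called in the authors' deposited table. Each reads 5' to 3' on the gene's strand, with the half-site in capitals.
FAS first start: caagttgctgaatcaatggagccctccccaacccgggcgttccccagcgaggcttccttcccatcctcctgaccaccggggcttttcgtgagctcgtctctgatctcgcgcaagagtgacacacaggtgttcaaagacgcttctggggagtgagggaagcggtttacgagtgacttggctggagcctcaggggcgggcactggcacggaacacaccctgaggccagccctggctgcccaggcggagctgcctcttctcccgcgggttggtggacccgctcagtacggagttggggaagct
FAS last start: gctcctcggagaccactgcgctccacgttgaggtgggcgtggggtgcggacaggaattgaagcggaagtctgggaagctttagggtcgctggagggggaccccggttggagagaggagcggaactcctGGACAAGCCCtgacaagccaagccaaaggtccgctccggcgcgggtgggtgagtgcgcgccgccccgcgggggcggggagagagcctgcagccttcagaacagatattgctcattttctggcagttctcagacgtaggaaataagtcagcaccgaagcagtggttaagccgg
AEN: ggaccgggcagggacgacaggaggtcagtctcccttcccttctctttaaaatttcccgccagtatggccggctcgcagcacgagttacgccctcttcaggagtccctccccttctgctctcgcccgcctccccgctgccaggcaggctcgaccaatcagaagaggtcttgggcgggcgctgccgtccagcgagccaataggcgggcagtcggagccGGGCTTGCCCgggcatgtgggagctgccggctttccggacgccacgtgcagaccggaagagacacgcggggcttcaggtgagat
SESN1 last start: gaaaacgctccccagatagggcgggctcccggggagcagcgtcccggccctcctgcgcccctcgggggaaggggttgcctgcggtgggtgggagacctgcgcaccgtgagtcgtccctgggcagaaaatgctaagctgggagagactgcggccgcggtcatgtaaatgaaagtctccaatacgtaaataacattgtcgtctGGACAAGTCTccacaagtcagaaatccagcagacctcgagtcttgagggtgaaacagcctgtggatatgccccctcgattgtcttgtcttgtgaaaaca
TP53I3: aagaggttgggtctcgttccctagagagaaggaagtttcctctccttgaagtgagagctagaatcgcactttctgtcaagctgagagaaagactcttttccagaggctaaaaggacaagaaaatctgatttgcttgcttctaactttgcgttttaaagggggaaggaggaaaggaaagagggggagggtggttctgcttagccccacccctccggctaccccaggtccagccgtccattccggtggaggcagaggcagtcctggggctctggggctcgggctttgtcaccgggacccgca

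The half-site searched was the p53 consensus half-site, which reads the same on both strands, with no mismatch allowed. It began 122 bases before the last FAS start, 34 bases before the AEN start and 49 bases before the last SESN1 start. Among all 35116 promoter windows of this length 6.63% held at least 1 half-site. A pair of half-sites, adjacent or a short spacer apart, was in none of the members' windows and in 0.0285% of all windows. This exact search misses pairs in which a half-site departs from the consensus, so it does not show that p53 sites are absent. TP53I3, MDM2, BAX, BBC3, SESN2 and ZMAT3 had no match in their windows, which says only that these letters do not occur there. The FAS windows shown held 18 and 22 CG dinucleotides, between the median of 14 and the upper quartile of 28 over all windows.

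Library totals were 17.4 to 31.5 M estimated counts (M for mega), and levels are given as counts per M (CPM), scaled by TMM. CPM values are compared between libraries for 1 gene, not between genes, because they are not corrected for transcript length. KDM6A RNA stood at 35.2 to 36 CPM in WT and 25.9 to 40.8 CPM in KO (edgeR adjusted p 0.672), and such a whole-gene count cannot check a small deletion. On the first principal component, with 59.9% of the variance, KO1 replicate 2 and both KO2 libraries lay apart from the remaining 5. These 3 libraries, called high-collagen here, summed to 24910 to 64350 CPM over 14 mesenchymal and connective tissue markers, against 130.4 to 1705 CPM in WT and 984.2 to 1220 CPM in the remaining KO libraries, with none of the 14 markers at 0 in any library. Their 12 neuronal markers summed to 617.9 to 2509 CPM, against 3547 to 5289 CPM in the 5 other libraries. Single markers differed: in KO2 replicate 1 NEFL stood at 239 CPM, above the 39.6 to 204 CPM of WT. NEFM, RBFOX3 and SNAP25 lay within the WT range there, at 228, 9.14 and 50.3 CPM, and the remaining neuronal markers lay below WT. Each member is therefore also given without these 3 libraries, an alternative added after the data were seen. In bulk RNA, fewer cells of a type and less RNA per cell cannot be told apart.

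Across the knockout, RNA of FAS and TP53I3 was higher in every KO library than in every WT library, BBC3 was lower in every KO library, and the other 7 members overlapped between the genotypes. Of the 10 members, 7 had a positive and 3 a negative log2 fold change, with a median of 0.35. Over all 18614 genes tested the median was -0.01, with 9201 positive and 9413 negative. In the authors' deposited table, 2 of the 10 members rose (FAS and TP53I3) and 0 fell, where 5.23% of all genes tested were called higher and 1.24% lower. A gene lay above WT in every KO library for 6.29% of genes and below it in every KO library for 6.16%, against 2 and 1 of the 10 members. edgeR's quasi-likelihood test with Benjamini-Hochberg adjustment called 0% of genes at an FDR of 0.05, members included. At an unadjusted p under 0.05 edgeR had 11.5% of genes higher and 6.45% lower, among them FAS and TP53I3 higher and BBC3 lower. DESeq2, run here on the counts, called 4.81% of genes higher and 1.15% lower, with FAS and TP53I3 again the members called. Without the 3 high-collagen libraries 7 members were positive with a median of 0.25, where the median of all genes was -0.01, and DESeq2 called 2 members higher, MDM2 and TP53I3, where it called 0.921% of genes higher and 0.616% lower.

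**Figure D1:**
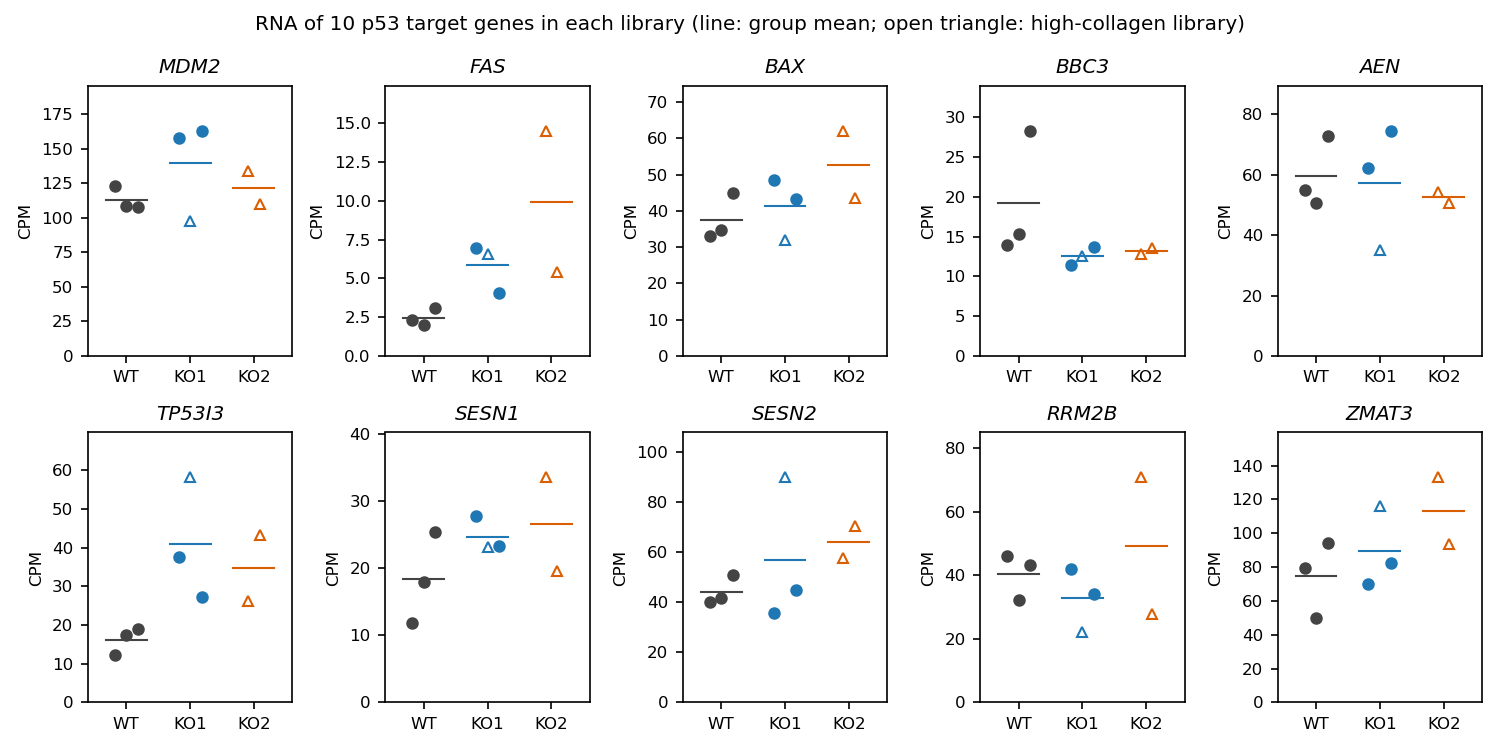
RNA of each member in CPM (vertical axes from 0, scaled per gene) for WT, KO1 and KO2, with 1 symbol per library, a line at the group mean and open triangles for the high-collagen libraries. FAS and TP53I3 lie above all WT libraries in all 5 KO libraries, BBC3 lies below them, and the other members overlap.

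MDM2, the ubiquitin ligase of the feedback loop, stood at 123, 109 and 108 CPM in WT, 158, 97.6 and 163 CPM in KO1 and 134 and 110 CPM in KO2. The WT libraries lay close together, while KO spread on both sides of them, lowest in KO1 replicate 2. The log2 fold change was 0.23 (SE 0.187) with an edgeR adjusted p of 0.496, and 0.529 in the authors' deposited table. Without the 3 high-collagen libraries both remaining KO libraries (158 and 163 CPM) lay above all WT libraries. The log2 fold change was then 0.50 (SE 0.138) with a DESeq2 adjusted p of 0.023, while edgeR's adjusted p was 0.431. MDM2 shares 8490 bases of its span with the carboxypeptidase M gene, which had means of 0.0698 CPM in WT and 0.5 CPM in KO.

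FAS, the death receptor that starts the extrinsic route of apoptosis when its ligand binds, was the member with the widest range. It stood at 2.31, 2.02 and 3.06 CPM in WT, 6.97, 6.57 and 4.05 CPM in KO1 and 14.5 and 5.4 CPM in KO2. All 5 KO libraries were above all 3 WT libraries, and KO2 replicate 1 stood far above the rest. Means were 2.46 ± 0.534 CPM (SD, n = 3) in WT and 7.5 ± 4.08 CPM (SD, n = 5) in KO. FAS rose in the authors' deposited table by a log2 fold change of 1.62 (SE 0.445, adjusted p 0.0107), and edgeR gave 1.61 (SE 0.443) with an adjusted p of 0.243. Refitting DESeq2 with 1 library left out in turn gave adjusted p-values over 0.05 without WT replicate 1 (0.0897) and without WT replicate 2 (0.116), and between 0.000637 and 0.0356 in the other 6 fits. With only the 2 KO libraries of low collagen the log2 fold change was 1.16 (SE 0.41) and the DESeq2 adjusted p was 0.151. RNA of the FAS ligand, FASLG, was listed at 0 in all 8 libraries.

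FAS (chr10:88964050-89017059 in the annotation) shares 27288 bases with ACTA2, a smooth muscle actin gene. The ACTA2 span ends at chr10:88991337 and the first FAS start of the promoter windows is at chr10:88990798. Most of the shared bases thus lie before that start. The labels and headers state no strand setting for the counting. ACTA2 stood at 6.28, 4.53 and 19.5 CPM in WT, 151, 374 and 25.8 CPM in KO1 and 362 and 357 CPM in KO2, so it too was higher in every KO library than in WT. Whether reads of ACTA2 add to the FAS count was not tested. The libraries with 357 to 374 CPM of ACTA2 ranged from 5.4 to 14.5 CPM in FAS.

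BAX, which opens the outer mitochondrial membrane, stood at 33, 34.6 and 44.8 CPM in WT, 48.4, 32 and 43.3 CPM in KO1 and 62 and 43.5 CPM in KO2. The groups overlapped on both sides, with a log2 fold change of 0.29 (SE 0.214) and an edgeR adjusted p of 0.454. Leaving out the high-collagen libraries gave 0.29 as well (DESeq2 adjusted p 0.796).

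BBC3 encodes PUMA, a BH3-only protein that frees BAX from its inhibitors. Its RNA stood at 14, 15.3 and 28.3 CPM in WT, 11.4, 12.6 and 13.7 CPM in KO1 and 12.8 and 13.6 CPM in KO2. Every KO library was below every WT library, but the gap was small, from 13.7 to 14 CPM, and WT replicate 3 carried most of the difference in means. Means were 19.2 ± 7.92 CPM (SD, n = 3) in WT and 12.8 ± 0.955 CPM (SD, n = 5) in KO. The log2 fold change was -0.58 (SE 0.236) with an edgeR adjusted p of 0.268 and 0.211 in the authors' deposited table. Dropping WT replicate 3 left a log2 fold change of -0.18 with DESeq2, and dropping the high-collagen libraries -0.61 (adjusted p 0.661).

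AEN, a nuclease that acts in apoptosis, stood at 55, 50.8 and 72.7 CPM in WT, 62.2, 35.2 and 74.5 CPM in KO1 and 54.3 and 50.7 CPM in KO2. The lowest and the highest value were both in KO1, and the groups overlapped fully. Its log2 fold change of -0.10 (SE 0.236, edgeR adjusted p 0.823) became 0.20 (DESeq2 adjusted p 0.947) without the high-collagen libraries.

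TP53I3, also called PIG3, is a quinone oxidoreductase-like enzyme tied to the cell's production of reactive oxygen species. It stood at 12.2, 17.3 and 19 CPM in WT, 37.6, 58.1 and 27.3 CPM in KO1 and 26.3 and 43.2 CPM in KO2. All KO libraries were above all WT libraries in both lines, with the highest value in KO1 replicate 2. Means were 16.2 ± 3.57 CPM (SD, n = 3) in WT and 38.5 ± 13.1 CPM (SD, n = 5) in KO. TP53I3 rose in the authors' deposited table by a log2 fold change of 1.27 (SE 0.337, adjusted p 0.00795), and edgeR gave 1.25 (SE 0.302) with an adjusted p of 0.243. With only the low-collagen KO libraries (37.6 and 27.3 CPM) it was 1.00 (SE 0.278) and the DESeq2 adjusted p was 0.0257. The call was lost in DESeq2 without WT replicate 1 (adjusted p 0.101) or WT replicate 2 (0.0581) and held in the other 6 fits, at 0.00116 to 0.0463.

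TP53I3 (chr2:24077433-24084834) lies inside the span of FAM228B, which stood at 4.61 to 6.36 CPM in WT and 3.82 to 6.54 CPM in KO. FAM228B thus overlapped between the genotypes while TP53I3 did not.

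SESN1 and SESN2 encode sestrins, which restore peroxiredoxins and restrain the growth kinase complex mTORC1. SESN1 stood at 11.8, 18 and 25.4 CPM in WT, 27.7, 23.1 and 23.3 CPM in KO1 and 33.5 and 19.5 CPM in KO2. The groups overlapped through WT replicate 3, with a log2 fold change of 0.47 (SE 0.271, edgeR adjusted p 0.362), and 0.47 also without the high-collagen libraries (DESeq2 adjusted p 0.809). SESN1 (chr6:108984309-109094846) overlaps ARMC2, which stood at 5.56 to 9.76 CPM over the 8 libraries.

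SESN2 stood at 40.1, 41.7 and 50.9 CPM in WT, 35.8, 90 and 45.1 CPM in KO1 and 57.9 and 70.6 CPM in KO2. Here the high values were those of the 3 high-collagen libraries, all above WT, while the other 2 KO libraries lay among or below the WT libraries. The log2 fold change of 0.44 (SE 0.289, edgeR adjusted p 0.412) turned to -0.13 (DESeq2 adjusted p 0.984) without those libraries. SESN2 is also a target of the stress factor ATF4, whose pathway is described further on.

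RRM2B, the p53-inducible subunit of the enzyme that makes deoxyribonucleotides, stood at 46.1, 32.2 and 43.1 CPM in WT, 42, 22.1 and 34.2 CPM in KO1 and 70.8 and 27.7 CPM in KO2. Its lowest and highest libraries were both high-collagen KO libraries. The log2 fold change was -0.04 (SE 0.359, edgeR adjusted p 0.961), and -0.09 without the high-collagen libraries (DESeq2 adjusted p 0.994).

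ZMAT3, a zinc finger protein that binds RNA and alters its splicing, stood at 79.7, 49.7 and 94.4 CPM in WT, 70.1, 116 and 82.5 CPM in KO1 and 133 and 93.8 CPM in KO2. The groups overlapped, with a log2 fold change of 0.41 (SE 0.27, edgeR adjusted p 0.408). It was 0.03 without the high-collagen libraries (DESeq2 adjusted p 0.998), so the 2 remaining KO libraries lay within the WT range.

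The KO lines were next set side by side, each against the same 3 WT libraries. For FAS the log2 fold change was 1.25 (SE 0.429) in KO1 and 2.01 (SE 0.467) in KO2. For TP53I3 it was 1.34 (SE 0.339) in KO1 and 1.1 (SE 0.368) in KO2. BBC3 was at -0.61 in KO1 and -0.54 in KO2, and RRM2B at -0.31 and 0.28. edgeR called 0% of 19440 genes in either line, with 8.06% (KO1) and 18.3% (KO2) at an unadjusted p under 0.05, and the smallest adjusted p of a member was 0.61 in KO1 and 0.257 in KO2.

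DESeq2 called 0.865% of genes in KO1, without a member, and TP53I3 was the nearest with an adjusted p of 0.0621. In KO2 it called 3.36% of genes higher and 0.995% lower, and of the members only FAS passed, with an adjusted p of 0.00545. The edgeR result for KO2 depended on KO1 replicate 2, a library of the other line in the same fit, and the reason was not tested. Without KO1 replicate 2 edgeR called 3228 genes in KO2, with FAS at an adjusted p of 0.0304 and TP53I3 at 0.0448. Both KO2 libraries are high-collagen libraries, so line and collagen content cannot be told apart in KO2.

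KO2 against KO1, the test of the difference between the lines, called no member with edgeR or DESeq2, each with an adjusted p of 1. edgeR called 0% of genes there (2.24% at an unadjusted p under 0.05) and DESeq2 0.041%. The widest difference between lines among the members was that of FAS, at 0.76 (SE 0.462), and it turned to -0.09 without KO2 replicate 1.

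**Figure D2:**
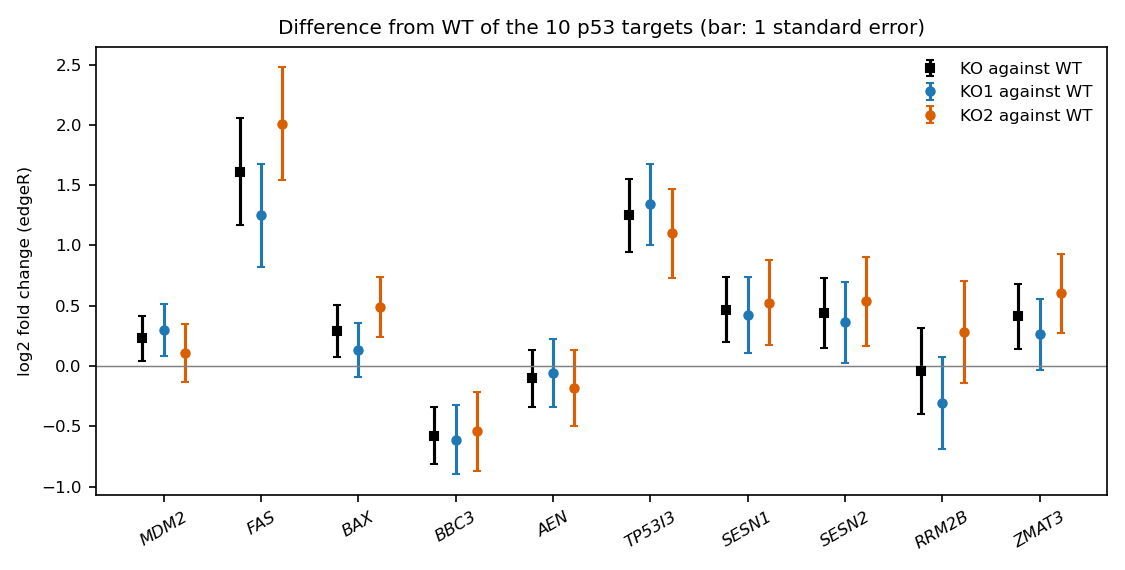
Log2 fold change of each member (vertical axis, edgeR) for KO, KO1 and KO2 against the same WT libraries, with bars of 1 standard error. FAS and TP53I3 lie above 1 in every comparison, BBC3 lies below 0 in every comparison, and for RRM2B the 2 lines lie on opposite sides of 0.

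Genes with the pattern most like that of a member were sought for the 3 members with the widest range, FAS, TP53I3 and RRM2B, by the root mean square difference of row-centred log2 CPM over the 8 libraries among 16265 genes. For FAS, which spanned 2.79 log2 units, the nearest were AC002456.1 (0.20), EHD4 (0.20) and TENM3-AS1 (0.24). TP53I3 spanned 2.25 units and was nearest to FZD1, a WNT receptor (0.20), AC107294.2 (0.26) and AC102945.2 (0.26). RRM2B spanned 1.68 units and was nearest to PLEKHA7 (0.11), RFX2 (0.13) and ADAM32 (0.13). No member was among the nearest 3 of another.

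Beyond the 10 members, 45 other direct p53 targets were read as a list, also chosen with earlier results of these data known. Of these, 43 had enough counts, 31 with a positive and 12 with a negative log2 fold change, and their median was 0.21. By the deposited test 8 of the 43 rose and 0 fell, and 7 lay above and 1 below WT in every KO library. Without the high-collagen libraries the median was 0.14, and DESeq2 called 4 higher and 0 lower of the 42 it could adjust. Over all genes it called 0.921% higher and 0.616% lower there.

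Among 10 targets for growth arrest 2 rose in the authors' deposited table. SERTAD1, a cofactor of cyclin-dependent kinase 4, had 2.2 to 2.76 CPM in WT and 4.55 to 14 CPM in KO (deposited log2 fold change 1.73, adjusted p 0.00322). PLK2, a polo-like kinase that also acts at synapses, had 28.5 to 41.5 CPM in WT and 42.7 to 210 CPM in KO (1.81, adjusted p 0.031), with its 2 highest values, 210 and 202 CPM, in high-collagen libraries. CDKN1A, the p21 inhibitor of cyclin-dependent kinases and the best known p53 target, was picked out after its values were seen. It stood at 115, 37.2 and 75.9 CPM in WT, 141, 83.1 and 158 CPM in KO1 and 194 and 104 CPM in KO2. Those groups overlapped, and its adjusted p in the deposited table was 0.216.

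Among 13 measured targets for apoptosis and death receptors 3 rose. TNFRSF10D, a decoy receptor for the death ligand TRAIL, stood at 7.25, 4.97 and 7.4 CPM in WT, 24.3, 25.9 and 12.4 CPM in KO1 and 44.2 and 24 CPM in KO2. As in FAS, every KO library lay above every WT library and KO2 replicate 1 was highest. Its deposited log2 fold change was 2.01 (adjusted p 0.000131), and it held without the high-collagen libraries (DESeq2 adjusted p 0.00739). SPATA18, which takes part in the clearing of damaged mitochondria, had 0.536 to 1.01 CPM in WT and 1.7 to 5.29 CPM in KO (2.08, adjusted p 0.00117). PERP, a membrane protein of desmosomes, had 3.91 to 6.44 CPM in WT and 7.78 to 44 CPM in KO (2.3, adjusted p 0.00815).

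Among 20 targets for repair, metabolism and secreted factors 3 rose. KITLG, a growth factor that binds KIT, had 18.3 to 28.7 CPM in WT and 51.5 to 75.9 CPM in KO (deposited log2 fold change 1.39, adjusted p 1.69e-06). ATF3, a stress-induced transcription factor, had 9.09 to 12.2 CPM in WT and 14.8 to 55.7 CPM in KO (1.59, adjusted p 0.0243). TRIM22, an antiviral protein, had 2.74 to 7.9 CPM in WT and 6.49 to 40.5 CPM in KO (1.97, adjusted p 0.0209), with overlap. KITLG and ATF3 were also called without the high-collagen libraries (DESeq2 adjusted p 0.000304 and 0.00344), as was TGFA, a growth factor named after its values were seen (0.0111). With TNFRSF10D these were the 4 of the 45 other targets called there, so SERTAD1, PLK2, SPATA18, PERP and TRIM22 were not. Their log2 fold changes without the high-collagen libraries were unlike: 1.65 (SE 0.588, DESeq2 adjusted p 0.16) for SPATA18, 0.94 for SERTAD1, 0.91 for TRIM22, 0.68 for PERP and 0.55 for PLK2.

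Upstream of these targets, of 16 genes for the p53 family and its regulators 15 were measured, 4 with a positive and 11 with a negative log2 fold change and a median of -0.06, and 1 rose in the authors' deposited table. That gene was CDKN2A, which encodes the kinase inhibitor p16 and, in another reading frame, ARF, the inhibitor of MDM2. It stood at 0.203, 0.137 and 0.0536 CPM in WT, 3.28, 1.4 and 0.852 CPM in KO1 and 2.19 and 2.38 CPM in KO2 (deposited log2 fold change 3.90, adjusted p 5.19e-06). A count per gene does not separate its products. All KO libraries were above WT, where the gene was near the floor. With only the 2 low-collagen KO libraries, both of KO1, the log2 fold change was 3.93 (SE 0.96, DESeq2 adjusted p 0.00679).

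Of 27 partners and paralogs of the members 23 were measured, 12 positive and 11 negative with a median of 0.14, and 1 rose. It was BOK, a relative of BAX, with 4.72 to 9.04 CPM in WT and 8.66 to 59 CPM in KO (2.51, adjusted p 0.00123). BCL2L11, a BH3-only protein like BBC3, was called only without the high-collagen libraries (DESeq2 adjusted p 0.0205) and is named after its values were seen.

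The 16 integrated stress response genes, driven by ATF4, all had a positive log2 fold change, with a median of 0.78, and 2 rose in the authors' deposited table: TRIB3, a pseudokinase (2.13, adjusted p 0.0377), and VLDLR, a lipoprotein receptor (1.93, adjusted p 0.0403). Their summed level was 1772 to 3066 CPM in the high-collagen libraries, 1101 and 1212 CPM in the other KO libraries and 1081 to 1273 CPM in WT. Without the high-collagen libraries the median was 0.03, with 9 of 16 positive and 0 called by DESeq2, or by edgeR in all 8 libraries.

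**Figure D3:**
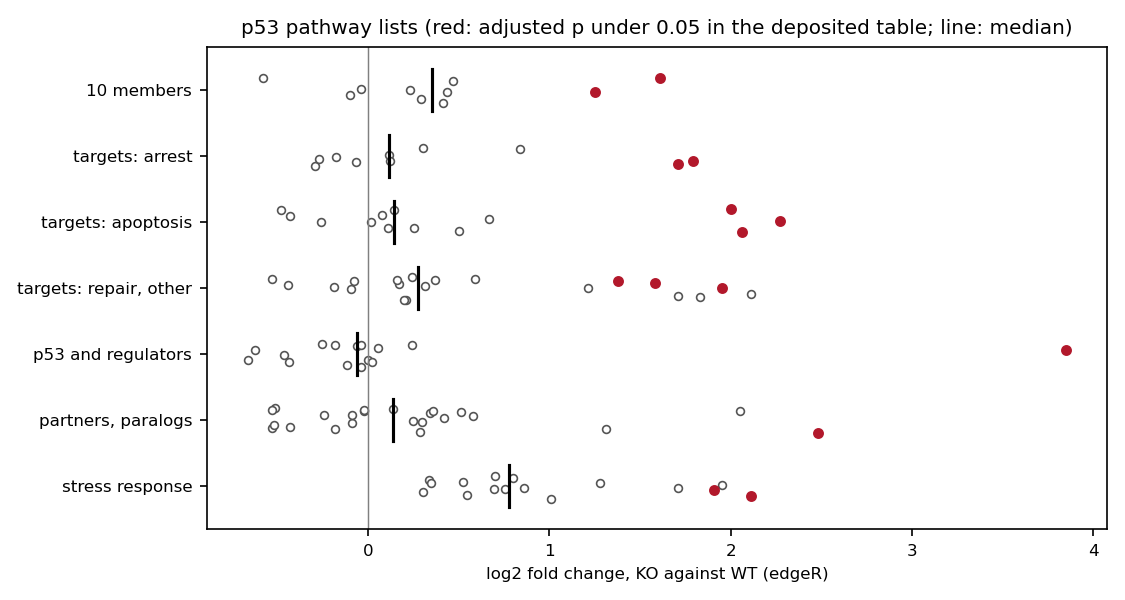
Log2 fold change of KO against WT (horizontal axis, edgeR) for the 10 members and 6 p53-related gene lists, with 1 point per measured gene, a bar at the list median and red for an adjusted p under 0.05 in the authors' deposited table. The members' median is 0.35, the regulators' -0.06 and that of the stress response genes 0.78, and every red point lies above 0.

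Markers of other cell types also differed between the genotypes. In the 2 low-collagen KO libraries the mesenchymal sum (1220 and 984.2 CPM) was within the WT range, but 3 of the 14 markers lay above WT in both. The share of all genes above WT in both was not computed, so such counts, here and for the markers below, are descriptive. TAGLN, a smooth muscle actin-binding protein, stood at 312 and 51 CPM there against 5.97 to 19.1 CPM in WT, and it was called without the high-collagen libraries (log2 fold change 3.97, DESeq2 adjusted p 0.00837). ACTA2 stood at 151 and 25.8 CPM against 4.53 to 19.5 CPM in WT (DESeq2 adjusted p 0.185). FBN1, which forms microfibrils of the matrix, stood at 70.9 and 49.2 CPM against 24.6 to 45 CPM (DESeq2 adjusted p 0.147).

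In the same 2 libraries 6 epithelial markers summed to 61.4 and 23.64 CPM against 11.93 to 21.28 CPM in WT. KRT8, KRT19 and CLDN6 lay above WT in both, while KRT18, EPCAM and CDH1 overlapped WT. EPCAM stood at 1.62 and 1.09 CPM (0.429 to 1.86 CPM in WT) and CDH1 at 0.606 and 0.0881 CPM (0.0536 to 0.514 CPM in WT). The 5 endothelial and blood markers summed to 26.02 and 5.698 CPM there against 1.783 to 4.32 CPM in WT. KDR stood at 18.1 and 1.91 CPM (0.811 to 1.66 CPM in WT). It was called without the high-collagen libraries (log2 fold change 3.15, DESeq2 adjusted p 0.0104). TEK, at 6.16 and 3.29 CPM, also lay above WT (0.73 to 3.19 CPM). CDH5 and PTPRC overlapped WT, and PECAM1 was at 0 in both and near the floor in WT (0 to 0.0686 CPM). In the high-collagen libraries the epithelial sum was 61 to 530.1 CPM, the highest in KO2 replicate 1, where FAS and TNFRSF10D also peaked. That sum was mostly KRT8 (223 CPM) and KRT18 (270 CPM), with EPCAM at 2.55 CPM and CDH1 at 0.448 CPM.

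All 8 neural progenitor markers had a negative log2 fold change (median -1.03). In every KO library 4 of them lay below WT, against 6.16% of all genes tested. Their sum was 2484 to 2839 CPM in WT and 396.5 to 2325 CPM in KO. With the 3 high-collagen libraries left out their median was -0.25 and 1 was called lower, SOX3 (log2 fold change -1.29, DESeq2 adjusted p 0.000304). All 8 proliferation markers were negative too (median -0.55), 5 of them below WT in every KO library, against the same 6.16% of all genes. Their sums were 1496 to 1743 CPM in WT and 707.1 to 1501 CPM in KO. With the high-collagen libraries left out their median was -0.215 and DESeq2 called 0. The part of other cell types and of proliferation in the FAS and TP53I3 differences was not tested.

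H3K27me3 peaks overlapped the span of 2 of the 10 members in the WT list, FAS and AEN, and of 1 in the KO list, AEN, against 16.4% and 16.8% of tested genes with a position. At FAS the WT list held 2 peaks over the annotated starts and the KO list none, its nearest peak lying 186 kb away. The first WT peak (chr10:88990243-88991120) was 878 bp long with a fold of 6.44 over the control and a -log10 q of 11.3, and its summit lay 0.068 kb before the first start. It covered the whole first FAS window printed above. The second (chr10:88991186-88991536) was 351 bp long with a fold of 4.87 and a -log10 q of 7.24, and it covered the half-site and the start of the last window. Fold and q here and below are the authors' own values per peak.

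Of 15736 tested genes with a position, 15.4% had an H3K27me3 peak within 2 kb of a start in the WT list and 16% in the KO list. FAS was the 1 member of 10 with such a peak in the WT list, and 0 members had one in the KO list. A peak in the WT list and not in the KO list, as at FAS, was found at 1.93% of genes, and the opposite at 2.47%. The H3K27me3 lists were of like size, with 10340 peaks from 22.4 M tags in WT and 10950 peaks from 37.6 M tags in KO. Their median fold over the control differed, at 5.28 in WT and 4.5 in KO. The part of this difference between the lists in the FAS peaks was not tested. A missing peak means that the region did not pass the authors' threshold, not that the mark is absent. Both FAS peaks overlap the ACTA2 span as well, which ends at chr10:88991337, inside the second peak. The WT-only peaks are therefore not particular to FAS. ACTA2 RNA rose more than that of FAS in the authors' deposited table (log2 fold change 4.68, adjusted p 1.69e-06). To which gene the peaks belong was not tested. The KO list is named in the labels of both KO lines and its header names 1 alignment, so which line or lines it holds is not known, whereas the RNA of KO covers both.

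**Figure D4:**
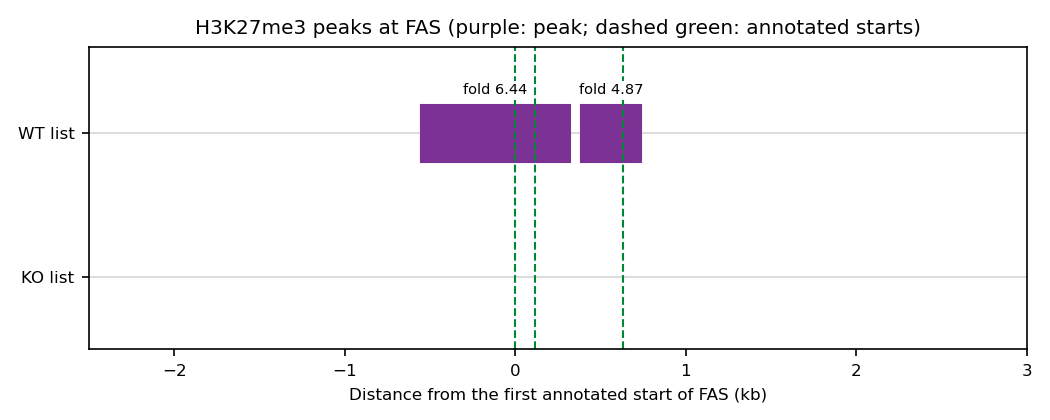
H3K27me3 peaks in the WT and KO lists along distance from the first annotated FAS start in kb (boxes to scale, labelled with the authors' fold over the control; dashed lines at the 3 starts). The WT list has peaks of fold 6.44 and 4.87 over the starts and the KO list has none in this window. Both peaks also overlap the span of ACTA2, which is not drawn.

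AEN carried H3K27me3 in both lists, upstream of the start shown above but over the first base of its annotated span. The larger peak was 3607 bp long (fold 10.02) in WT and 4435 bp long (fold 9.96) in KO, with summits 16.1 and 16 kb before the start shown above. The larger peak covers the first base of the annotated AEN span (chr15:88604683-88632281) in both lists and overlaps the noncoding gene LINC01586. The promoter windows hold no AEN start there, so this peak was not counted among those within 2 kb of a start. A smaller WT peak of 292 bp overlapped the microRNA gene MIR7-2, and a smaller KO peak of 637 bp overlapped MIR1179. No H3K27me3 peak of either list overlapped the other 8 members.

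Other p53 targets with H3K27me3 in the WT list and not in the KO list were, after their values were seen, compared with FAS. TNFRSF10D had 2 such peaks near a gene end (highest fold 4.31, with no start known here) and SPATA18 had 1 at a start (fold 5.08), both genes that rose in the deposited table. DRAM1 and LIF shared the WT-only peak, for LIF near a gene end with no start known, without passing that test (adjusted p 0.776 and 0.0868). KITLG, SERTAD1, PLK2 and ATF3 rose and had no H3K27me3 peak at a start in either list, and PERP and CDKN2A rose with such peaks in both. TRIM22, with no start known, rose and had no such peak near a gene end in either list. PMAIP1, which encodes the BH3-only protein NOXA, had peaks in the KO list only, with an adjusted p of 0.944 for its RNA. A WT-only peak and higher RNA therefore occurred together at FAS, TNFRSF10D and SPATA18 and apart at the others, and no test was run on these few genes.

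H3K36me3 peaks overlapped the span of 6 of the 10 members in the WT list and 4 in the KO list, against 43.6% and 23.7% of genes tested with a position. By share of the span MDM2 had the most even pair, with 4 peaks over 3.89% of its span (chr12:68808172-68850686) in WT and 5 peaks over 3.32% in KO. However, no MDM2 peak in the WT list overlapped a peak in the KO list. AEN had 5 peaks over 11.1% of its span in WT and 1 peak over 0.942% in KO, which overlapped none of the WT peaks. SESN2 had 5 peaks over 10.1% in WT and 1 over 1.07% in KO.

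BBC3 (2 peaks, 5.93% of the span), TP53I3 (1 peak, 6.23%) and ZMAT3 (1 peak, 0.501%) had H3K36me3 in the WT list only. RRM2B had 1 peak, over 0.734% of its span, in the KO list only. FAS, BAX and SESN1 had none in either list. Within 2 kb of a start the mark was found at 1 member in each list, TP53I3 in WT and MDM2 in KO, against 9.51% and 3.26% of genes. TP53I3 therefore lacked an H3K36me3 peak in the genotype with more of its RNA, and FAS lacked one in both.

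The KO list of H3K36me3 was short as a whole, with 8937 peaks over 2.641 Mb from 44.3 M tags, against 30144 peaks over 14.508 Mb from 22.5 M tags in WT. A peak in WT and not in KO was found over 22.5% of genes, so the 3 members with that pattern stand close to the background, and the reverse over 2.61%. The lists' fragment lengths were 269 bp in WT and 200 bp in KO. The part of this difference between the lists in the members' peaks was not tested.

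**Figure D5:**
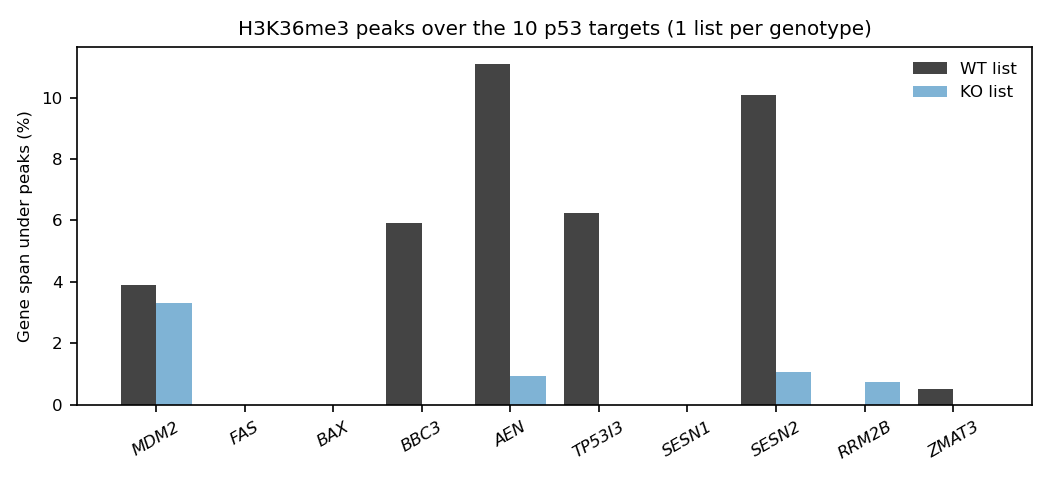
Share of each member's annotated span under H3K36me3 peaks in percent (vertical axis from 0), for the WT and KO lists, with no error because each genotype has 1 list. AEN has 11.1% in WT and 0.942% in KO, SESN2 10.1% and 1.07%, and MDM2 3.89% and 3.32%. The bars do not show position: at MDM2 and AEN the peaks of the lists do not overlap.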

How the data were processed

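RNA was measured in 8 libraries and 2 histone marks in 1 peak list per genotype. Per the submitters' processing notes, the tools were Salmon 1.1.0, DESeq2 1.26.0, Bowtie2 2.4.1 and MACS2 2.2.7.1. The RNA values deposited by the authors are estimated counts, summed by gene symbol and not normalized. The authors' deposited comparison table gives a mean normalized signal, log2 fold changes with standard errors, a Wald score and p-values, raw and adjusted. Per the file headers, peaks were called at a q of 0.01 with 1 treatment and 1 control alignment each. The deposited peak lists give pileup signal, fold ratio over control and -log10 q. The authors' gene annotation and strand setting were not given in the sources used here. Both KO lines' labels name the same KO peak list.

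Counts were rounded and tested with edgeR 4.0.16 in R 4.3.3 (filterByExpr, TMM, quasi-likelihood F-test, Benjamini-Hochberg over all genes, FDR 0.05). KO against WT pooled the lines, and a fit with 3 groups gave each line's contrast. DESeq2 1.42.0 was the alternative, and its members' log2 fold changes matched the authors' deposited log2 values within 1.49e-06. CPM used for likeness had a prior count of 2 and a mean of at least 1. On simulated data for KO against WT (18614 genes) edgeR found 5.97% of the genes changed 2-fold, 56.7% of those changed 4-fold and 75.8% of those changed 8-fold with 3 false calls, and DESeq2 found 25.4%, 88.1% and 89.4% with 58. Peaks were assigned to members by an overlap of at least 1 bp with the gene span or with 2 kb around a start (either end where no start was known), in GRCh38.p14 coordinates, 1-based. Positions and promoters came from RefSeq tables, and 15736 of 18614 tested genes had a position.

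The members and lists were chosen with earlier results of these data known. Named genes were the 10 members, KDM6A, up to 6 genes per list with the smallest adjusted p in the comparison table, and the 3 most alike genes of the 3 widest members. A further gene of the naming rule is not reported here. Alternatives were RLE scaling, other count filters, DESeq2, a replicate block, each library left out, other windows and stricter peaks. Added after seeing the data were fits without the 3 high-collagen libraries and DESeq2 with each library left out.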

Additional observations from a re-analysis of the deposited data

Results flagged for a closer look

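FAS RNA in KO2 replicate 1, at 14.5 CPM, stood apart from the other 4 KO libraries (4.05 to 6.97 CPM): its gap to the next library was 0.721 of the range over the 5 KO libraries, above Dixon's 95% critical value of 0.71. Chance puts about 1 in 20 such groups past this value, and 10 genes were examined. Without KO2 replicate 1 the DESeq2 log2 fold change of FAS was 1.25 with an adjusted p of 0.00475, so the call in KO against WT did not rest on that library.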

How the results depend on the processing

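For KO against WT the number of genes called by edgeR was 0 with RLE scaling, with other filters and with each library left out, while DESeq2 called 1243, and 272 without the 3 high-collagen libraries. With 1 library left out at a time DESeq2 called 453 to 2871. For KO1 against WT no filter gave 1 and DESeq2 172, with 0 under edgeR for each library left out. For KO2 against WT no filter gave 1 and DESeq2 836, and leaving out libraries gave 0 to 3228. For KO2 against KO1 DESeq2 gave 9, and leaving out libraries 0 to 958. Both high counts came without KO1 replicate 2. The cause was not tested. Without the high-collagen libraries no KO2 library is left, so that alternative was not run for KO2.

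MDM2, FAS, TP53I3, BAX, SESN1 and ZMAT3 stayed positive and BBC3 negative in KO against WT under every alternative run. Signs turned for members near 0. In KO against WT AEN ran from -0.23 to 0.069 and RRM2B from -0.35 to 0.12 with a library left out, over edgeR and DESeq2. Without the high-collagen libraries AEN was 0.21 (DESeq2 0.20) and SESN2 -0.12 (DESeq2 -0.13), the same as in KO1 against WT (0.206 and -0.123). With a library left out, KO1 against WT gave AEN -0.29 to 0.20 and SESN2 -0.13 to 0.61, and KO2 against WT gave MDM2 -2.43e-05 to 0.22 and RRM2B -0.51 to 0.79. KO2 against KO1 gave AEN -0.37 to 0.10, BBC3 -0.010 to 0.14, FAS -0.093 to 1.28, RRM2B -0.21 to 1.09, SESN1 -0.32 to 0.41, SESN2 -0.072 to 0.68 and TP53I3 -0.67 to 0.12.

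Deviations from the group mean of same-numbered WT and KO1 libraries had correlations of 0.0692, -0.321 and -0.221. Those of WT and KO2 had 0.0499 and -0.107, and those of KO1 and KO2 had 0.267 and 0.164. With groups of 2 or 3 libraries these values cannot decide whether the numbers pair the samples. With a replicate block edgeR again called 0 genes in each comparison, FAS had 1.47 and TP53I3 1.21 in KO against WT (adjusted p 0.386 for each), and AEN turned to 0.018 in KO2 against WT and to 0.11 in KO2 against KO1. Members with an H3K36me3 peak near a start in WT were 2 within 5 kb and 1 within 2 kb, and over the span in KO 2 at a -log10 q of 5 or more and 4 at the authors' threshold.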
